A study of Homo sapiens with 10 samples.

Results

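The genes described here are 39 members of the cell division programme, 19 that act in S phase, when DNA is copied, and 20 that act in mitosis, when the copies are parted. They were chosen by name from the 19215 gene symbols counted in each library. All 39 were among the 13349 genes that passed the filter on low counts. The cells were HepG2 and SK-Hep1, human lines the labels describe as hepatocellular carcinoma. Each had been infected for 48 h with lentiviral particles in 10 µg/mL polybrene, the multiplicity of infection being 5, in Eagle's minimum essential medium with 10% fetal bovine serum. The particles encoded either a tough decoy (TuD), an RNA that binds a microRNA and keeps it from its targets, against miR-17, or a negative control decoy (NC TuD). Cells were selected for 2 weeks in puromycin at 1 µg/mL, and the resistant colonies were pooled. Each of the 4 groups is thus 1 pooled stable line, and all groups share the vector infection and the selection. RNA-seq gave 3 libraries each of HepG2 NC TuD and HepG2 miR-17 TuD, and 2 each of SK-Hep1 NC TuD and SK-Hep1 miR-17 TuD. The labels do not say that replicates came from separate cultures, so p-values measure only the spread between these libraries, which may be technical. The decoy and the separate history of each stable line cannot be told apart.

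Entry into S phase is driven by cyclin E with its kinase and by E2F transcription factors, which switch on the genes for origin licensing, the replicative helicase and deoxynucleotide supply. Mitotic genes are repressed early in the cycle by the DREAM complex and switched on later through MuvB complexes with B-MYB and FOXM1. This often goes by way of a promoter element called the cell cycle genes homology region (CHR), with CCAAT boxes beside it. Because these transcripts rise and fall with the cycle, their level in a bulk sample follows how many cells are cycling as well as how much RNA each one makes. The miR-17 family of microRNAs shares a seed, the bases that pair with targets, and is known for acting on cell cycle inhibitors and E2F genes.

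Gene counts came to 12884225 to 15076431 per library, and 1 count was worth 0.0657 to 0.0795 CPM, the library-scaled count unit used below. The labelled lines were checked by markers. The 10 hepatocyte markers, ALB and AFP among them, summed to 45921 to 55105 CPM in HepG2 and to 75.9 to 104 CPM in SK-Hep1. The 10 mesenchymal markers summed to 15691 to 17054 CPM in HepG2 and to 22103 to 23701 CPM in SK-Hep1, and 8 of them were higher in SK-Hep1. FN1 and TGFBI were lower there, at 5974 and 2.48 CPM in SK-Hep1 NC TuD against 15464 and 797 CPM in HepG2 NC TuD. VIM, CAV1 and CD44 averaged 8822, 1288 and 1515 CPM in SK-Hep1 NC TuD and 1.98, 0.433 and 0.380 CPM in HepG2 NC TuD. SK-Hep1 has a reported endothelial origin, yet 8 endothelial markers summed to 0.490 to 1.18 CPM there, with KDR and ERG at 0. Of 8 blood cell markers, CD3E and HBB were at 0 in all libraries, and LYZ averaged 2552 CPM in HepG2 NC TuD and 1.61 CPM in SK-Hep1 NC TuD. The SK-Hep1 NC TuD libraries held 59 and 113 counts of ALB, against 0 and 4 in SK-Hep1 miR-17 TuD. This was at most 0.0547% of the HepG2 NC TuD level, and its part in the results was not tested. The decoy itself and its microRNA were not measured in these libraries, so no library carries a check of its decoy label. Among the members, the coefficient of variation between libraries of a group had medians of 3.36% (NC TuD) and 3.92% (miR-17 TuD) in HepG2. In SK-Hep1 they were 2.44% (NC TuD) and 1.54% (miR-17 TuD).

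The members' promoters are shown first, because they separate S phase from mitosis genes by sequence. RefSeq promoters on GRCh38.p14, 300 bases from 250 before to 50 after the gene start, matched 16 S phase and 17 mitosis members. They were searched on both strands for E2F words (TTTCGCGC, TTTGGCGC, TTCCCGCC and TTTCCCGC, the last pair overlapping where both match), for the CHR (TTTGAA and TTTAAA) and for CCAAT. An E2F word stood in 13 of 16 S phase promoters, 3 of 17 mitosis promoters and 6.96% of all 15336 promoters. The CHR was found in 3 of 16 S phase promoters, 14 of 17 mitosis promoters and 19.2% of all. CCAAT was in 12 of 16, 15 of 17 and 36.4%, and CHR and CCAAT together in 2 of 16, 12 of 17 and 7.82%. A match describes letters, not a bound site. The 200 bases before the start are printed for 2 S phase genes and 3 mitosis genes, with each match in capitals, including matches on the other strand (ATTGG for CCAAT) and matches that run into each other.
MCM6 promoter, chr2:135876444-135876643, minus strand: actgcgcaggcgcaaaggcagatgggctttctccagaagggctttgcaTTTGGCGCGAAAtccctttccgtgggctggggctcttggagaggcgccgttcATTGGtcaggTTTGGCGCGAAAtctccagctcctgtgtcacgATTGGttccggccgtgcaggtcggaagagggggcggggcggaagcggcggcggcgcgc
POLA1 promoter, chrX:24693718-24693917, plus strand: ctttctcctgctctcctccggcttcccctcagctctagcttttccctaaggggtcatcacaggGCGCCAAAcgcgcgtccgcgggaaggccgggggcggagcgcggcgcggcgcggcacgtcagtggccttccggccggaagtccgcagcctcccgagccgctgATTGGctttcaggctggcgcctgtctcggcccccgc
CDK1 promoter, chr10:60778131-60778330, plus strand: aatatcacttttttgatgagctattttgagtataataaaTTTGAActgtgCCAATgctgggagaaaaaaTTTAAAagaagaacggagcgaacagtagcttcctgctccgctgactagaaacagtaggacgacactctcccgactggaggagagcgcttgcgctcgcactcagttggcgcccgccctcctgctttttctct
MKI67 promoter, chr10:128126424-128126623, minus strand: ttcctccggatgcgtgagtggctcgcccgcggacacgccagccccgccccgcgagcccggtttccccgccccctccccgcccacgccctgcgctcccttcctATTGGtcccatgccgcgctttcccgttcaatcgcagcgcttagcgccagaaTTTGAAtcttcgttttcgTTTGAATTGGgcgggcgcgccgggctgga
CENPF promoter, chr1:214602995-214603194, plus strand: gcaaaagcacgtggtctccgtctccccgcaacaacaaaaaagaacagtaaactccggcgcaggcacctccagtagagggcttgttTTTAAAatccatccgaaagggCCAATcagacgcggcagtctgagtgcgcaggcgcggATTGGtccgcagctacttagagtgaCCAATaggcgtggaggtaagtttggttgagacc
In MCM6, a helicase subunit, E2F words on the opposite strands overlapped in each of the longer capital runs. POLA1, the catalytic subunit of the primase-bound polymerase, held a single E2F word and a CCAAT. CDK1, the kinase that starts mitosis, and MKI67, the Ki-67 proliferation antigen, each held the CHR in 2 places, and CENPF, a kinetochore protein, had 3 CCAAT matches downstream of its CHR.

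The decoy was built against miR-17, so the seed of miR-17 is shown here with members that hold a match to it. RefSeq lists 8 human microRNAs with the seed of miR-17 at bases 2 to 8, in capitals below. Of these, miR-93-5p and miR-106b-5p lie within the member gene MCM7, outside its exons.
hsa-miR-17-5p: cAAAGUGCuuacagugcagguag
hsa-miR-93-5p: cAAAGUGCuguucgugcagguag
hsa-miR-106b-5p: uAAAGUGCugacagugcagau
Matches were sought in the 3′ untranslated region (3′UTR) of GENCODE 29 on GRCh38 as GCACTTTA (8mer), GCACTTT (7mer-m8) and CACTTTA (7mer-A1). Of 19 S phase genes 6 held a match (31.6%), of 20 mitosis genes 6 (30%), and of 17871 symbols with a 3′UTR 27.7%. Matches in 4 of the genes called in a decoy comparison follow, with up to 10 bases on each side.
RRM2 8mer, chr2:10129753-10129780, plus strand: tataaacctgGCACTTTAcaaacaaata
MKI67 7mer-m8, chr10:128097660-128097687, minus strand: cttagcagagGCACTTTggaaggtgtga
MKI67 7mer-A1, chr10:128097567-128097594, minus strand: agttgttctaaCACTTTAgacttagtag
BUB1 7mer-A1, chr2:110637896-110637923, minus strand: atgaatctgctCACTTTAaacctgtttt
CENPF 7mer-m8, chr1:214663795-214663814, plus strand: agGCACTTTgtgtgtcagta
CCNE2 held a 7mer-A1 match as well, and MCM3, MCM4, CCNB2 and NUSAP1 were among the other members with matches.
These letters say where the seed could pair, not that it did.

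In the control lines, transcript levels are compared between genes as CPM per kb of exon, with exon lengths from GENCODE 29. In HepG2 NC TuD the most abundant member was PCNA, the sliding clamp of DNA polymerase, at 361 CPM per kb. The helicase subunit MCM3 (151), the topoisomerase TOP2A (146), the mitotic kinase PLK1 (109.8) and cyclin B1, CCNB1 (107), followed. CCNE2, the cyclin E that is the rarer of the pair here, was lowest at 3.01 CPM per kb, under its partner CCNE1 at 17.7. SK-Hep1 NC TuD kept PCNA first (218), but CDC20, the activator of the anaphase-promoting complex, stood second at 205 CPM per kb, ahead of TOP2A (198) and CCNB1 (188). There CCNE2 (11.6) lay above CCNE1 (9.75), so the order of the cyclin E pair was the opposite in the other line.

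The first comparison asked how the members differed between decoy and control in HepG2. Of the 39, 3 were called higher (CCNE2, RRM2 and MKI67) and 7 lower (CDC6, CDK1, UBE2C, CENPA, BUB1, KIF20A and AURKA). Among all genes tested, 10.7% were called higher and 8.58% lower. By stage, S phase genes had 2 higher, 1 lower and 16 not called, with a median log2 fold change of -0.020. Mitosis genes had 1 higher, 6 lower and 13 not called, with a median of -0.068, against a median of 0 over all genes. Fewer cycling cells and less RNA per cell cannot be told apart in these bulk libraries.

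CCNE2, a cyclin that drives entry into S phase, stood at 9.92, 11.3 and 9.83 CPM in the HepG2 NC TuD libraries and at 13.3, 12.8 and 15.3 CPM in the miR-17 TuD libraries. Every decoy library was above every control library. Its log2 fold change was 0.41 ± 0.11 (SE; adjusted p = 0.0027), the largest of any member in this line, on 135 to 202 counts per library. CCNE1 did not move with it, at 36.3, 34.9 and 39.2 CPM in controls and 33.7, 37.4 and 34.0 CPM with the decoy, which overlap (-0.069 ± 0.068 (SE; adjusted p = 0.549)). RRM2, the small subunit of ribonucleotide reductase, which makes deoxynucleotides, stood at 388, 399 and 368 CPM in controls. With the decoy it was at 432, 438 and 456 CPM, again without overlap, a log2 fold change of 0.20 ± 0.038 (SE; adjusted p = 5.14e-05). The large subunit RRM1 was at 0.082 ± 0.040 (SE; adjusted p = 0.156) and did not pass.

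CDC6, which loads the helicase at origins, was the only S phase member called lower, going from 156, 164 and 150.1 CPM to 135, 137 and 148 CPM. The arms did not overlap, but the highest decoy library came close to the lowest control. Its log2 fold change was -0.16 ± 0.046 (SE; adjusted p = 0.00634). CDT1, the partner of CDC6 in licensing, was at 0.12 ± 0.053 (SE) and overlapped between arms. Of the 6 helicase subunits MCM2 to MCM7, none was called, with values from -0.048 (MCM4) to 0.049 (MCM2), and PCNA was at 0.0068 ± 0.035 (SE). MCM7, host of 2 of the decoy's own microRNA family, stood at 365, 347 and 359 CPM in controls and 351, 357 and 348 CPM with the decoy, which overlap (-0.020 ± 0.036 (SE; adjusted p = 0.781)). The helicase partners CDC45, GINS1 and GINS2 were at -0.069, -0.12 and -0.10 on the log2 scale, none of them called. POLA1, TYMS (thymidylate synthase) and UHRF1, which keeps DNA methylation through replication, lay between -0.041 and 0.031. TYMS was lower in every decoy library than in every control library, although its fold change was not called.

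MKI67 was the only mitosis member called higher in HepG2, going from 319, 349 and 331 CPM in the NC TuD libraries to 389.8, 385 and 384 CPM in the miR-17 TuD libraries. The decoy libraries lay close together and above all controls, and the log2 fold change was 0.21 ± 0.036 (SE; adjusted p = 5.68e-06). The genes called lower act from the start of mitosis to its end. CDK1 went from 144, 143 and 137 CPM to 126, 122 and 133 CPM, a change of -0.15 ± 0.044 (SE; adjusted p = 0.00823). UBE2C, the ubiquitin-conjugating enzyme of the anaphase-promoting complex, went from 65.4, 65.0 and 64.1 CPM to 53.6, 54.5 and 55.7 CPM. Its arms were well apart, with a log2 fold change of -0.25 ± 0.052 (SE; adjusted p = 0.000277). The centromeric histone CENPA stood at 40.3, 41.3 and 38.7 CPM in controls and 33.2, 34.8 and 32.9 CPM with the decoy. No decoy library reached a control library there either, and the change was -0.25 ± 0.065 (SE; adjusted p = 0.00342).

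The other calls in HepG2 were smaller. BUB1, a checkpoint kinase, stood at 136, 150.3 and 138 CPM in controls and at 129, 126 and 132 CPM with the decoy, a log2 fold change of -0.13 ± 0.044 (SE; adjusted p = 0.0254). KIF20A, a kinesin of the spindle midzone, was at 99.2, 107 and 106 CPM and then 96.0, 93.8 and 92.7 CPM, a change of -0.14 ± 0.046 (SE; adjusted p = 0.0191). AURKA, a spindle pole kinase, was at 228, 232 and 217 CPM and then 216, 193 and 213 CPM, a change of -0.12 ± 0.042 (SE; adjusted p = 0.0262). In all 3 the arms did not overlap, by a narrow gap for AURKA. TOP2A, which untangles the copied chromosomes, had 831, 885 and 799 CPM in controls and 789, 765 and 821 CPM with the decoy. These overlapped, and its change of -0.083 ± 0.035 (SE; adjusted p = 0.0833) was not called. CCNB1, the cyclin partner of CDK1, had 240.3, 235 and 224 CPM and then 226, 211 and 229.8 CPM, overlapping too (-0.068 ± 0.039 (SE; adjusted p = 0.241)). The remaining mitosis genes lay between -0.10 (CCNA2, cyclin A2) and 0.10 (AURKB, the kinase of the chromosomal passenger complex).

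Counted by libraries, every miR-17 TuD library was above every NC TuD library for 4 members in HepG2 (CCNE2, RRM2, MKI67 and AURKB), and below for 9, of which 7 are mitosis genes. The background was 16.1% of all genes above and 14.9% below. The calls of CCNE2, RRM2, MKI67, UBE2C and CENPA held when any 1 of the 6 libraries was left out. CDC6 did not pass without decoy replicate 1 (adjusted p = 0.069) or control replicate 2 (0.0505), nor CDK1 without decoy replicate 2 (0.0678) or control replicate 1 (0.0522). KIF20A was lost without control replicate 2 (0.084) or 3 (0.0592). BUB1 was lost without decoy replicate 1 (0.0867) or 2 (0.0948) or control replicate 2 (0.206), under DESeq2 (0.07) and on the deposited log2 matrix (0.0548). AURKA was lost without decoy replicate 2 (0.271) or control replicate 1 (0.102) or 2 (0.0925), under DESeq2 (0.0887) and on the deposited log2 matrix (0.0861).

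**Figure D1:**
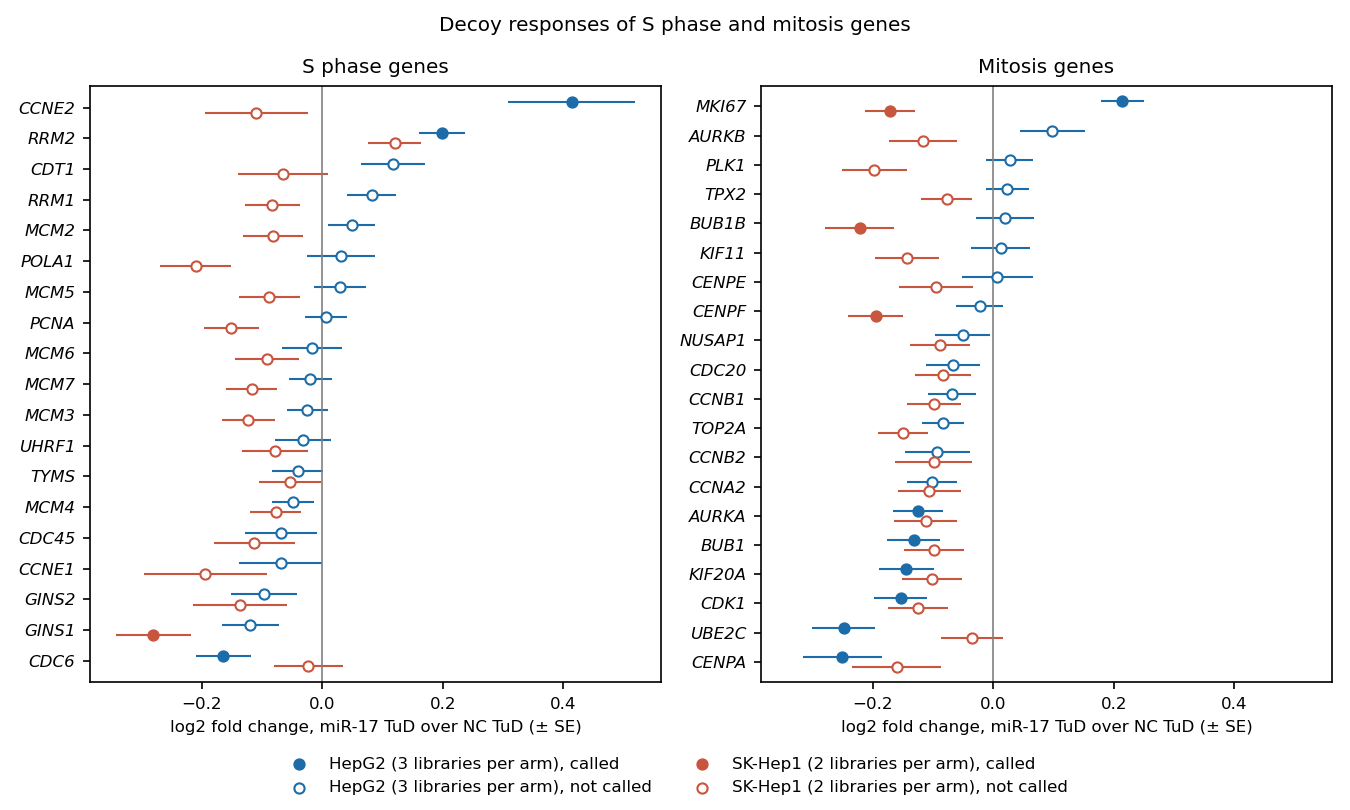
Log2 fold change of miR-17 TuD over NC TuD (x axis, ± SE) for each S phase gene (left) and mitosis gene (right), in HepG2 (blue) and SK-Hep1 (red). Filled points were called at an adjusted p below 0.05. HepG2 points spread on both sides of 0, from -0.25 to 0.41, while SK-Hep1 points lie below 0 except RRM2 at 0.12.

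Set against the seed matches, all 3 genes called higher in HepG2 (CCNE2, RRM2 and MKI67) were among the 12 members with a match. Of those 12, 3 were called higher and 1 lower (BUB1), and of the 27 without a match 0 were called higher and 6 lower. Over all genes with a 3′UTR, 564 of 3966 with a match were called higher and 284 lower, and 812 of 8758 without one were called higher and 818 lower. The medians of the members were -0.024 with a match and -0.041 without. In SK-Hep1, 0 of the 12 were called higher and 2 lower (MKI67 and CENPF), and 0 of the 27 were called higher and 2 lower, with medians of -0.10 and -0.11. Over all genes there, 58 of 3966 with a match were called higher and 10 lower. Without one, 29 of 8758 were called higher and 17 lower. These counts are descriptive and were not tested.

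In SK-Hep1 the members moved in another way, little each but nearly all downward. The fold change lay below 0 for 38 of 39 members, 18 of 19 S phase genes and 20 of 20 mitosis genes, and for 52.0% of all genes tested. The median was -0.091 for S phase genes (-6.13%) and -0.11 for mitosis genes (-7.28%), against -0.0053 over all genes. Single genes seldom passed in the fit that takes its spread from all 4 groups. By edgeR, 0 members were called higher and 4 lower (GINS1, CENPF, BUB1B and MKI67), with 0.667% of all genes called higher and 0.202% lower. At an unadjusted p under 0.05 there were 19 members, all lower except RRM2, where all genes had 8.36%. Both decoy libraries lay below both controls for 33 members, 14 of S phase and 19 of mitosis, and above for 1, against a background of 21.9% below and 18.4% above. The 5 members whose libraries overlapped were CCNE2, CDC6, CDT1, UHRF1 and UBE2C.

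Taken by library, the median deviation of mitosis genes from the control mean was -0.011 and 0.011 in the SK-Hep1 NC TuD libraries, and -0.12 and -0.10 in the miR-17 TuD libraries. For S phase genes the controls were farther apart, at -0.036 and 0.036, and the decoy libraries stood at -0.10 and -0.10. Both decoy libraries were thus below both controls in each list, while over all genes the medians stayed within 0.01 of 0. In HepG2 the mitosis medians of the arms overlapped, with NC TuD from -0.045 to 0.042 and miR-17 TuD from -0.10 to -0.016. The number of SK-Hep1 members below 0 was 38 under each other scaling and test tried, and 33 to 38 when 1 library was left out. Those scalings and tests differ little here, with the median over all genes between -0.0053 and 0.0044. The members rise and fall with the cycle, so they are not separate observations.

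**Figure D2:**
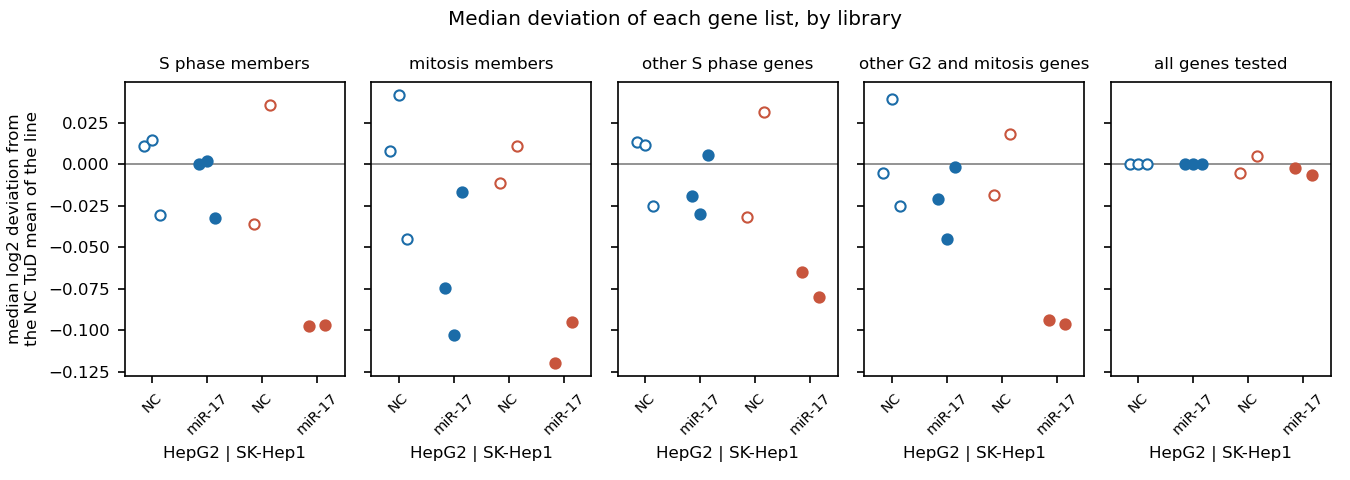
Median log2 deviation of each gene list from the NC TuD mean of the same line (y axis), 1 point per library, with NC TuD as open and miR-17 TuD as filled points, HepG2 in blue and SK-Hep1 in red. The SK-Hep1 miR-17 TuD libraries lie below their controls in the 4 division lists and beside them in the list of all genes tested.

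GINS1, a subunit of the GINS complex that joins the replicative helicase, had the largest fall in SK-Hep1. It stood at 83.2 and 86.5 CPM in the NC TuD libraries and 72.7 and 67.1 CPM in the miR-17 TuD libraries, well apart, a log2 fold change of -0.28 ± 0.062 (SE; adjusted p = 0.00674). CENPF was at 458 and 486 CPM and then 396 and 428 CPM, with 1 decoy library nearer the controls, and changed by -0.19 ± 0.046 (SE; adjusted p = 0.0151). BUB1B, the checkpoint protein BubR1, was at 124 and 121 CPM and then 104 and 106 CPM. The arms were tight and apart, with a change of -0.22 ± 0.057 (SE; adjusted p = 0.039). MKI67 was at 803 and 830.4 CPM in controls and 731 and 720.3 CPM with the decoy, a change of -0.17 ± 0.041 (SE; adjusted p = 0.0209) in the line where its level was higher.

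Several members of both stages lay apart between the arms without a call. TOP2A stood at 1133 and 1151 CPM in SK-Hep1 controls and 1023 and 1034 CPM with the decoy (-0.15 ± 0.042 (SE; adjusted p = 0.0685)). PCNA was at 312 and 329 and then 293 and 285 CPM (-0.15 ± 0.045 (SE; adjusted p = 0.107)), and MCM7 at 509 and 545 and then 491 and 482 CPM (-0.12 ± 0.043 (SE; adjusted p = 0.289)). In these 3, as in CDK1, CCNB1 and CCNE1 given next, both decoy libraries were below both controls. CDK1 was at 219 and 214 and then 193 and 204 CPM (-0.12 ± 0.050 (SE; adjusted p = 0.401)), and CCNB1 at 401 and 414 and then 376 and 386 CPM (-0.10 ± 0.045 (SE; adjusted p = 0.528)). The cyclin E genes were 20.2 and 20.3 and then 18.4 and 17.01 CPM for CCNE1 (-0.19 ± 0.10 (SE; adjusted p = 0.62)). CCNE2 was at 36.5 and 42.9 CPM in controls and 37.3 and 36.4 CPM with the decoy, where only 1 control stood above the rest (-0.11 ± 0.086 (SE; adjusted p = 0.801)). RRM2 was the 1 member above 0, at 550.1 and 612 CPM in controls and 638 and 626 CPM with the decoy, both decoy libraries on top (0.12 ± 0.045 (SE; adjusted p = 0.307)). The 6 MCM subunits ran from -0.12 (MCM3) to -0.077 (MCM4). All S phase genes ran from -0.28 (GINS1) to 0.12 (RRM2), and the mitosis genes from -0.22 (BUB1B) to -0.035 (UBE2C).

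None of the 4 calls in SK-Hep1 held throughout when a library was left out, each such fit resting on a lone library in 1 arm that is assumed to vary like the other groups. GINS1 was lost without control replicate 2 (adjusted p = 0.164) or decoy replicate 2 (0.351), and CENPF without control replicate 2 (0.413) or decoy replicate 1 (0.656). MKI67 was lost without control replicate 1 (0.0757) or 2 (0.355) or decoy replicate 1 (0.209) or 2 (0.278). BUB1B was lost in the same 4 cases, at 0.321, 0.151, 0.403 and 0.176, and with DESeq2 size factors (0.0619) or upper quartile scaling (0.057). CENPF and BUB1B did not pass under DESeq2 (0.0728 and 0.146), nor CENPF, BUB1B and MKI67 on the deposited log2 matrix (0.169, 0.142 and 0.0832). With the 4 SK-Hep1 libraries fitted alone, 10 members were called lower and 1 higher. That fit called more of all genes too, in both directions, as counted at the end. Its spread rests on 2 libraries per arm.

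**Figure D3:**
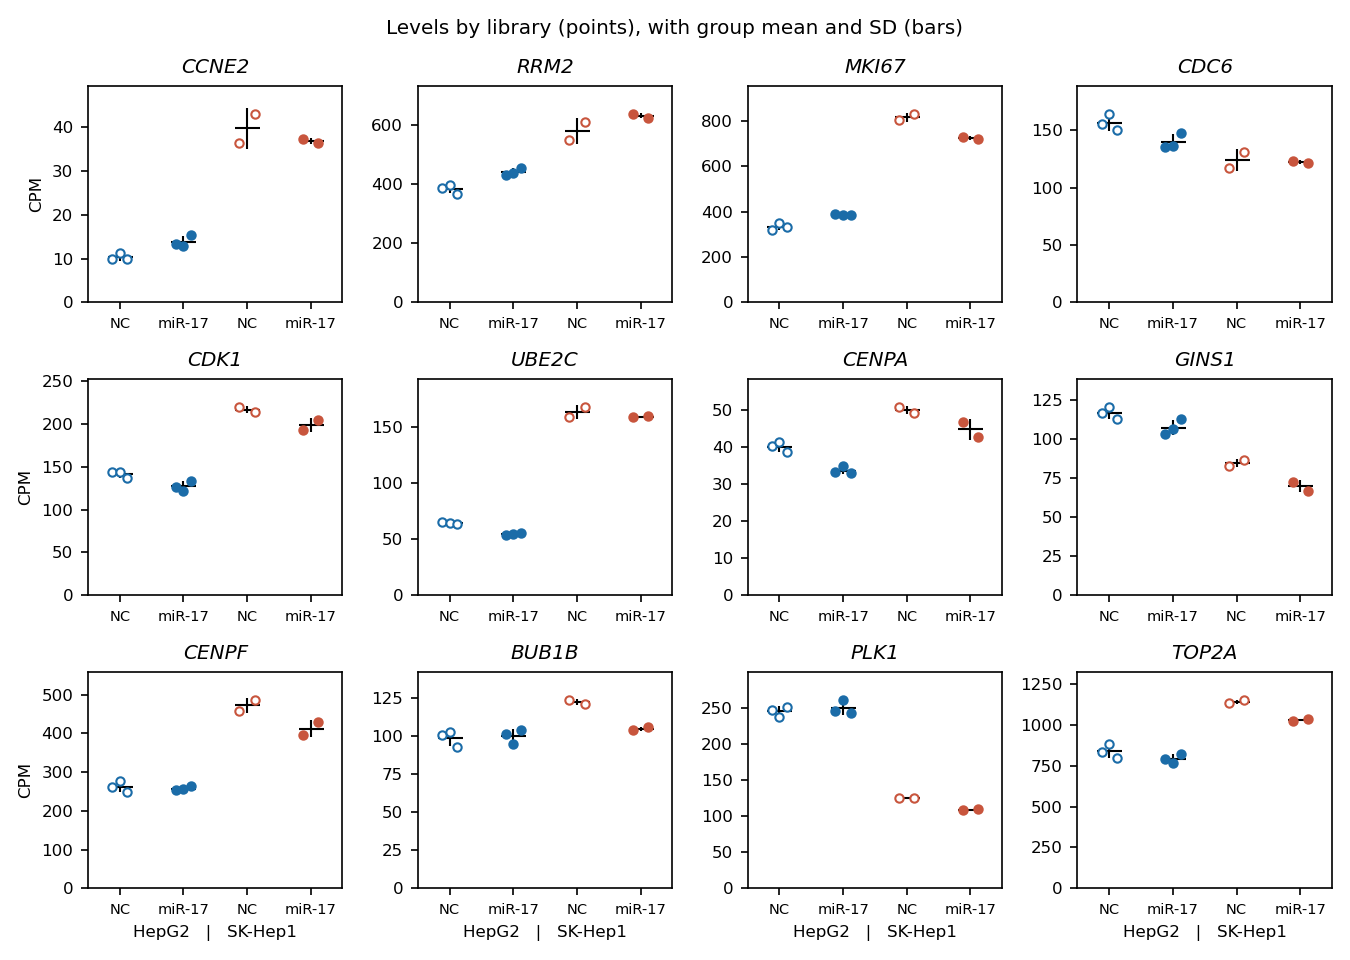
CPM (y axis, from 0) of 12 members in each library (points), with the group mean and SD as black bars, in HepG2 (blue) and SK-Hep1 (red), NC TuD as open and miR-17 TuD as filled points. MKI67 with the decoy lies above its controls in HepG2 and below them in SK-Hep1, and PLK1 is the 1 mitosis gene shown that was lower in SK-Hep1 than in HepG2.

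Whether the decoy response differed between the lines was tested directly, as SK-Hep1 minus HepG2. By edgeR 0 members were called higher and 3 lower, against 1.24% and 2.51% of all genes. At an unadjusted p under 0.05 there were 13 members, all lower except UBE2C. Among all 13349 genes there were 2035 at that p, and 6.27% of all genes were at that p and higher. The difference lay below 0 for 18 of 19 S phase genes and 14 of 20 mitosis genes, and for 52.6% of all genes. The medians were -0.098 for S phase and -0.034 for mitosis genes, against -0.013 over all genes. MKI67 differed most surely, by -0.38 ± 0.055 (SE; adjusted p = 1.52e-06): it rose in HepG2 and fell in SK-Hep1. The call held without any 1 of the 10 libraries and under every other setting tried. CCNE2 differed by -0.52 ± 0.14 (SE; adjusted p = 0.0152), with the rise in HepG2 given above and no call in SK-Hep1. PLK1, the kinase that drives mitotic entry and exit, differed by -0.22 ± 0.066 (SE; adjusted p = 0.0402). It stood at 246, 237 and 251 CPM in HepG2 controls and 245, 260.2 and 242 CPM with the decoy, which overlap (0.027 ± 0.039 (SE; adjusted p = 0.708)). In SK-Hep1 it was at 125 and 125 CPM and then 108 and 109.7 CPM, without overlap (-0.20 ± 0.053 (SE; adjusted p = 0.0546)).

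CCNE2's difference was lost without HepG2 control replicate 1 (adjusted p = 0.0651), SK-Hep1 control replicate 2 (0.174) or SK-Hep1 decoy replicate 2 (0.0579), under DESeq2 (0.0643) and on the deposited log2 matrix (0.0918). PLK1 passed in only 2 of the 10 fits that left out a library, those without HepG2 decoy replicate 3 or HepG2 control replicate 3. In the other 8 its adjusted p ran from 0.064 to 0.181. It was lost too with upper quartile scaling (0.051), DESeq2 (0.0703) and the matrix (0.068). For the genes that fell in HepG2 no difference was called: CDK1 was at 0.028 ± 0.066, CENPA at 0.090 ± 0.10 and UBE2C at 0.21 ± 0.074 (SE). A missed threshold does not show that the lines responded alike. POLA1 (-0.24 ± 0.081 (SE; adjusted p = 0.0894)) and BUB1B (-0.24 ± 0.075 (SE; adjusted p = 0.0552)) came near the threshold. TOP2A, CCNB1, CCNE1, PCNA and MCM7 had differences of -0.067 ± 0.054, -0.030 ± 0.060, -0.13 ± 0.12, -0.16 ± 0.057 and -0.10 ± 0.056 (SE), none of them called.

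The last comparison set the control lines against each other, SK-Hep1 NC TuD over HepG2 NC TuD. It shares its control libraries with the decoy comparisons, so its values stand beside theirs and are not evidence on them. Most genes differed between the lines, with 43.9% of all genes tested called higher in SK-Hep1 and 42.8% lower. Mitosis genes leaned to one side, 17 higher and 3 lower (PLK1, AURKA and CCNA2), with a median of 0.71 (63.8% higher) against 0.023 over all genes. S phase genes did not, with 9 higher, 8 lower, 2 not called (TYMS and MCM4) and a median of 0.016.

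The largest rise was CCNE2, at 9.92, 11.3 and 9.83 CPM in HepG2 and 36.5 and 42.9 CPM in SK-Hep1, a log2 fold change of 1.94 ± 0.095 (SE; adjusted p = 6.39e-27). CCNE1 moved the other way, from 36.3, 34.9 and 39.2 CPM to 20.2 and 20.3 CPM (-0.86 ± 0.084 (SE; adjusted p = 3.61e-14)). The lines thus had opposite members of the cyclin E pair high, with no overlap in either gene. CDC20 stood at 124, 119 and 127 and 367 and 383 CPM (1.61 ± 0.045 (SE; adjusted p = 3.64e-39)), and UBE2C, which works with it on the anaphase-promoting complex, at 65.4, 65.0 and 64.1 and 159 and 168 CPM (1.34 ± 0.051 (SE; adjusted p = 2.85e-32)). MKI67 was at 319, 349 and 331 and 803 and 830.4 CPM (1.29 ± 0.038 (SE; adjusted p = 8.22e-38)). All SK-Hep1 libraries were above all HepG2 libraries in these 3. TOP2A, CDK1 and CCNB1 were higher by 0.45 ± 0.038, 0.62 ± 0.046 and 0.81 ± 0.042 (SE), and the kinesins KIF11, KIF20A and CENPE by 1.05 ± 0.050, 1.03 ± 0.047 and 1.05 ± 0.059 (SE).

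The largest fall was PLK1, at 246, 237 and 251 CPM in HepG2 and 125 and 125 CPM in SK-Hep1, a log2 fold change of -0.97 ± 0.047 (SE; adjusted p = 2.94e-27) against the direction of most mitosis genes. GINS2, at 75.1, 74.8 and 69.1 and 38.6 and 40.6 CPM, fell by 0.88 ± 0.066 (SE; adjusted p = 1.29e-18). CDT1, at 89.7, 82.7 and 91.1 and 48.4 and 55.4 CPM, changed by -0.76 ± 0.064 (SE; adjusted p = 2.44e-16). The libraries of the lines were apart in each. Parts of 1 machine went opposite ways: among the helicase subunits MCM6 (1.01 ± 0.051) and MCM7 (0.56 ± 0.039) were higher in SK-Hep1 and MCM3 (-0.68 ± 0.040) and MCM2 (-0.40 ± 0.045) lower. MCM5 was at 0.38 ± 0.047 and MCM4 at 0.011 ± 0.039 (all SE). Of the 4 GINS subunits, GINS1 (-0.46 ± 0.054), GINS2 and GINS3 (-0.57 ± 0.090) were lower and GINS4 (1.44 ± 0.057, all SE) higher. CDC45, which binds them, was at 0.37 ± 0.063 (SE). PCNA was lower, at 530.3, 544 and 520.3 CPM in HepG2 and 312 and 329 CPM in SK-Hep1 (-0.73 ± 0.041 (SE; adjusted p = 3.85e-24)). UHRF1, higher by 0.21 ± 0.051 (SE), was lost without SK-Hep1 NC TuD replicate 2 (adjusted p = 0.128), the 1 member call here that a left-out library changed.

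**Figure D4:**
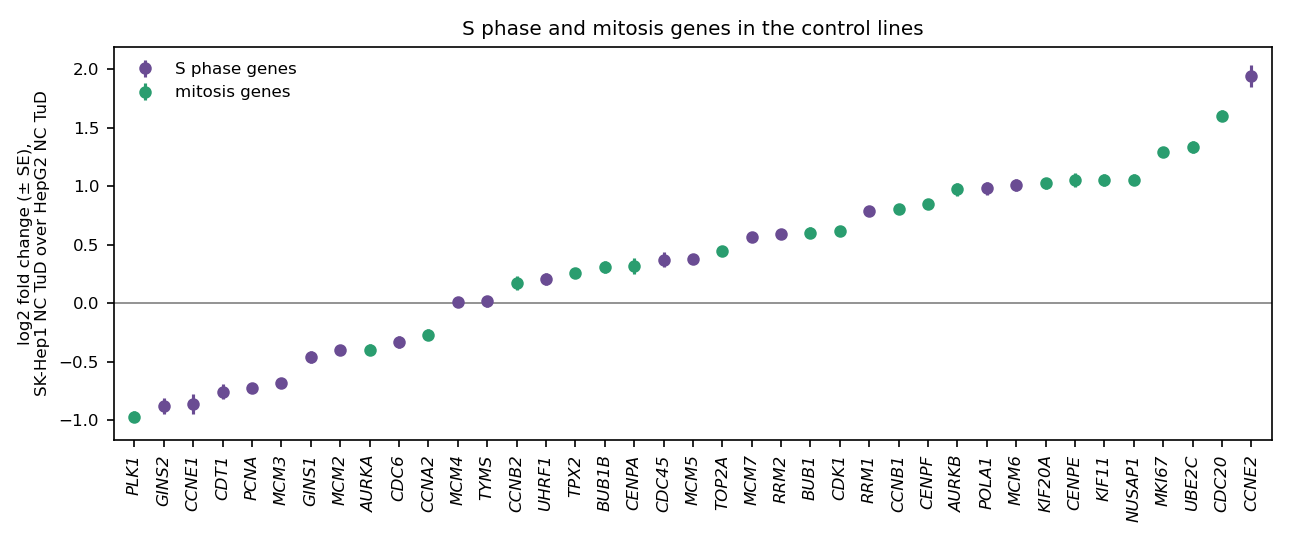
Log2 fold change of SK-Hep1 NC TuD over HepG2 NC TuD (y axis, ± SE) for the 39 members in order, S phase genes in purple and mitosis genes in green. S phase genes spread from -0.88 (GINS2) to 1.94 (CCNE2), and all but 3 mitosis genes lie above 0.

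The members were also sorted by the promoter words shown above and counted by direction between the lines. Among all genes tested, 43.9% were called higher in SK-Hep1 and 42.8% lower, with a median of 0.023. Of 13 members with a CHR and no E2F word, 11 were higher in SK-Hep1 and 2 lower, with a median of 0.81. Of 12 with an E2F word and no CHR, all S phase genes, 4 were higher and 7 lower, with a median of -0.36. The 4 members with both words were all higher, with a median of 0.70. Of the 4 with neither, 3 were higher and 1 lower, with a median of 0.49. In the SK-Hep1 decoy comparison the medians of the 13 and the 12 were -0.14 and -0.10, and in HepG2 -0.023 and -0.022. RRM2 and CCNE1 are S phase genes in the CHR class. The classes overlap with the stage of the cycle, and no test was made of either.

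Other genes of the same programme were read as lists beside the members. Of all genes tested, 10.7% were called higher and 8.58% lower in HepG2. Of 47 other S phase genes, HepG2 had 2 called higher, LIG1, the ligase of replication (0.20 ± 0.048 (SE; adjusted p = 0.00177)), and the thymidine kinase TK1 (0.17 ± 0.043 (SE; adjusted p = 0.00311)). It had 2 lower, RPA3, a subunit of the single-strand binding protein (-0.19 ± 0.067 (SE; adjusted p = 0.0328)), and the clamp loader subunit RFC3 (-0.15 ± 0.052 (SE; adjusted p = 0.0405)). In SK-Hep1 0 of them were called (9 of 47 at an unadjusted p under 0.05, with 8.36% of all genes), and 42 of 47 lay below 0 (52.0% of all genes). Both decoy libraries were below both controls for 26 (21.9% of all genes). Without 1 library the adjusted p of RPA3 rose to as much as 0.225 (lost without decoy replicate 1 or control replicate 1 or 2) and that of RFC3 to 0.275 (lost without replicate 1 or 2 of either arm), and under DESeq2 they were 0.117 and 0.152. RFC3 was lost on the log2 matrix too (0.17). The list medians were -0.013 in HepG2 and -0.092 in SK-Hep1.

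Of 65 other G2 and mitosis genes, HepG2 had 2 called higher and 9 lower (10.7% and 8.58% of all genes), with a median of -0.018. KIF23, a kinesin of the midbody, rose by 0.31 ± 0.054 (SE; adjusted p = 1.17e-05), the securin gene PTTG1 changed by -0.28 ± 0.053 (SE; adjusted p = 5.07e-05) and the checkpoint gene MAD2L1 by -0.25 ± 0.050 (SE; adjusted p = 0.00015). In SK-Hep1 0 were called higher and 1 lower, ASPM, a spindle pole protein (-0.24 ± 0.050 (SE; adjusted p = 0.00271)), with 0.667% and 0.202% of all genes. Of the 65, 62 lay below 0 (52.0% of all genes) and 51 had both decoy libraries below both controls (21.9%). The median was -0.10, and ASPM was lost without replicate 1 of either arm (adjusted p up to 0.149) and on the log2 matrix (0.142). Between the control lines 54 of the 65 were higher in SK-Hep1 and 7 lower (43.9% and 42.8% of all genes). The smallest adjusted p were those of ANLN, RACGAP1 and CIT, which act in the cleavage furrow, at 2.15 ± 0.040, 2.08 ± 0.047 and 2.14 ± 0.053 (SE). The other S phase genes had 29 higher and 15 lower, with the smallest adjusted p for TK1 (1.26 ± 0.045), GINS4 (1.44 ± 0.057) and RPA1 (0.94 ± 0.044, all SE).

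Regulators of the programme, 22 in all, had 4 called higher and 0 lower in HepG2 (10.7% and 8.58% of all genes). In SK-Hep1 0 of the 22 were called (3 of 22 at an unadjusted p under 0.05, with 8.36% of all genes). CDKN1A, the inhibitor p21, had the smallest adjusted p in HepG2, at 0.40 ± 0.039 (SE; adjusted p = 3.6e-12). FOXM1, an activator of mitotic genes, rose by 0.18 ± 0.046 (SE; adjusted p = 0.00227), and E2F8, a repressor of E2F genes, by 0.25 ± 0.077 (SE; adjusted p = 0.0162). RBL1, the pocket protein p107 of the DREAM complex, was the other one called (0.19 ± 0.067 (SE; adjusted p = 0.043)). In SK-Hep1 these genes stood at 0.16 (CDKN1A), -0.080 (FOXM1), -0.15 (E2F8) and 0.045 (RBL1), none called. CDKN1A came near the threshold there (edgeR adjusted p = 0.0516), while FOXM1 and E2F8 were at 0.707 and 0.692. Without 1 library E2F8 in HepG2 was lost in 2 fits, those without replicate 2 of either arm (adjusted p up to 0.109), and RBL1 in 3, those without replicate 3 of either arm or control replicate 1 (up to 0.484). RBL1 was also lost under DESeq2 (0.0993) and on the log2 matrix (0.191). Between the control lines 12 of the 22 were higher in SK-Hep1 and 8 lower (43.9% and 42.8% of all genes). The smallest adjusted p were those of CDKN1A (1.72 ± 0.041), E2F7 (2.27 ± 0.065) and FOXM1 (1.32 ± 0.048, all SE).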

How the data were processed

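RNA was measured in 10 libraries of 4 groups, read from the samples' labels. The authors deposited raw gene counts, library by library, and a log2 matrix. The submitters' processing notes name STAR, hg19 and HTSeq 0.5.4p5. The series description names other tools and a mouse genome, but the symbols are human and the tallies of unassigned reads have HTSeq's form. Those tallies name no gene (19.3% to 22.3% of each column) and were left out. The deposited log2 values matched log2 CPM of these counts for all 39 members and served as an alternative. The kit does not record the strand, so reads of overlapping genes on the other strand cannot be told apart.

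The test was edgeR's (4.0.16, under R 4.3.3), a quasi-likelihood fit of all libraries with 4 group means, after filterByExpr and TMM scaling. Tests were two-sided, p-values were Benjamini-Hochberg adjusted over 13349 genes, and a gene was called under 0.05. SE is the log2 fold change over the root of F. Levels are CPM with TMM factors. Alternatives used other scalings, no filter, DESeq2 1.42.0, limma 3.58.1, fewer libraries and a replicate block. Scripts were tested on simulated data, with changes larger than nearly all decoy responses of the members, so recovery of changes this small was not tested. Some of the seed match sites are not reported here. The members and gene lists were chosen with earlier results of these data known. The genes given library by library are the members called in a decoy comparison, the 4 largest calls per direction between lines, and 8 given in any case (MKI67, TOP2A, CDK1, CCNB1, CCNE1, CCNE2, PCNA and MCM7). Of other lists, the 3 calls with the smallest adjusted p were named, and RFC3, RBL1 and GINS3, named to complete small counts, were chosen after their values were seen.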

Additional observations from a re-analysis of the deposited data

Results flagged for a closer look

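These genes stand here because the decoy response differed between the lines in the test of the difference itself, SK-Hep1 minus HepG2. Of the members, MKI67 differed by -0.38 ± 0.055 (SE; adjusted p = 1.52e-06), CCNE2 by -0.52 ± 0.14 (SE; adjusted p = 0.0152) and PLK1 by -0.22 ± 0.066 (SE; adjusted p = 0.0402). MKI67 was higher with the decoy in 3 of 3 HepG2 libraries than in any control and lower in 2 of 2 SK-Hep1 libraries. Among other S phase genes the ligase LIG1 differed by -0.30 ± 0.074 (SE; adjusted p = 0.0083), the thymidine kinase TK1 by -0.24 ± 0.064 (SE; adjusted p = 0.0228) and the histone chaperone ASF1B by -0.32 ± 0.092 (SE; adjusted p = 0.0354). Among other mitosis genes the spindle gene ASPM differed by -0.29 ± 0.069 (SE; adjusted p = 0.00573) and GTSE1, a microtubule-binding protein of G2, by -0.30 ± 0.075 (SE; adjusted p = 0.0109). Of the regulators, E2F8 differed by -0.39 ± 0.12 (SE; adjusted p = 0.0394), FOXM1 by -0.26 ± 0.068 (SE; adjusted p = 0.0139) and CDKN1A by -0.24 ± 0.058 (SE; adjusted p = 0.00604). Of all genes tested, 1.24% were called higher in the difference and 2.51% lower. In the 11 genes the SK-Hep1 response was the lower one. CDKN1A was the only one of them above 0 in both lines, at 0.40 in HepG2 and 0.16 in SK-Hep1, and the other 10 were above 0 in HepG2 and below it in SK-Hep1. The 11 were picked by this difference, so their signs in each line are not separate evidence on it. MKI67 held under every alternative and with any 1 of 10 libraries left out. ASPM held without any 1 library but was lost on the deposited log2 matrix (adjusted p = 0.0907), as were CCNE2, PLK1, FOXM1, TK1 and E2F8 (0.0918, 0.068, 0.107, 0.121 and 0.0635). CDKN1A was lost without SK-Hep1 miR-17 TuD replicate 2 (adjusted p = 0.0683), and LIG1 without replicate 2 of either SK-Hep1 arm (up to 0.094). FOXM1 and GTSE1 were lost without those or HepG2 miR-17 TuD replicate 1 (up to 0.189 and 0.137). TK1 was lost in 6 fits and ASF1B and E2F8 in 7 each (up to 0.162, 0.184 and 0.138). The latter pair did not pass under DESeq2 either (adjusted p = 0.0983 and 0.126). With the replicate block in edgeR, every gene of the 11 except MKI67 was lost. There CDKN1A, LIG1, ASPM and GTSE1 had an adjusted p of 0.0766, 0.0688, 0.0666 and 0.0789.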

How the results depend on the processing

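The members with the fewest counts had the widest SE: CCNE2 and CCNE1 had 135 and 243 counts in their lowest libraries, with SE of the difference of 0.136 and 0.123. Libraries of the same replicate number did not vary together in HepG2, with correlations of their deviations of 0.045, -0.31 and -0.28. Libraries of unlike numbers there ran from -0.10 to 0.35, the highest for miR-17 TuD replicate 3 with NC TuD replicate 2. In SK-Hep1 the value was -0.075 for like and 0.075 for unlike numbers. With 2 libraries per arm these differ only in sign, so they say little about pairing. With the replicate block, HepG2 called 4 members lower (7 without), SK-Hep1 0 (4 without) and the difference 1 (3 without). SK-Hep1 members called lower came to 2 by DESeq2, 1 on the deposited log2 matrix and 10, with 1 higher, when its libraries were fitted alone. The difference had 1 called by DESeq2 and by the log2 matrix. With upper quartile scaling the medians between lines were 0.084 for S phase and 0.78 for mitosis. The cause of these shifts was not tested.

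Leaving out 1 library gave 3 to 4 members called higher in HepG2 and 3 to 9 lower, 0 to 2 lower in SK-Hep1 and 1 to 4 in the difference. Medians ran from -0.024 to -0.0039 (S phase) and -0.085 to -0.045 (mitosis) in HepG2, -0.15 to -0.068 and -0.12 to -0.094 in SK-Hep1, -0.14 to -0.078 and -0.067 to -0.018 for the difference, and 0.011 to 0.031 and 0.69 to 0.73 between lines. Uncalled values that changed sign were PCNA in HepG2 (-0.024 to 0.029), CCNE2 in SK-Hep1 (-0.22 to 0.014) and CDK1 in the difference (-0.014 to 0.069).

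Over all genes, HepG2 calls were 1425 higher (898 on the log2 matrix) and 1146 lower (719 by DESeq2). In SK-Hep1 they were 89 higher (43 with the block, 185 fitted alone) and 27 lower (44 with no filter, 76 on the matrix, 15 with the block, 89 alone). The difference had 165 higher (55 with the block) and 335 lower (217 by DESeq2, 172 with the block). Without 1 library these ran from 1038 to 1465 and 755 to 1229 in HepG2, 33 to 53 and 16 to 21 in SK-Hep1, and 64 to 208 and 202 to 405 for the difference.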
